A study of Mus musculus with 6 samples.

Results

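The genes described here are 10 members of the YAP-TEAD pathway, chosen by name from the 23366 genes of the count table: the coactivator genes Yap1 and Wwtr1 (which encodes TAZ), the DNA-binding factor genes Tead1 and Tead2, the inhibitor genes Amotl1, Amotl2 and Lats2, and the target genes Ctgf, Cyr61 and Ankrd1. All 10 were found in the table and all 10 passed the filter on low counts. They were followed in 6 libraries of cultured cerebellar granule neurons from C57BL/6 mice at postnatal day 7. Each culture was infected with lentivirus on day 1 in vitro. The 3 control libraries carried the empty pLKO.1 vector, which has no hairpin, and the 3 knockdown libraries carried a pLKO.1 hairpin that targets Kdm6b. The Kdm6b product removes methyl groups from lysine 27 of histone H3. The cultures were grown in Neurobasal medium with B27 and serum. The sources used here do not give which of them received BDNF or the day of harvest.

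YAP and TAZ are coactivators without a DNA-binding domain of their own, and they act in the nucleus by binding TEAD factors. The Hippo kinase LATS2 and its relative LATS1 phosphorylate YAP and TAZ and keep them in the cytoplasm, and angiomotin-family proteins such as AMOTL1 and AMOTL2 bind YAP and also hold it back. CTGF and CYR61 are secreted matrix-associated proteins whose genes are textbook targets of YAP-TEAD, ANKRD1 is an ankyrin repeat protein used as a target readout in many cell types, and AMOTL2 and LATS2 are targets as well as inhibitors, which makes them part of a feedback loop. In the cerebellum YAP is known from proliferating granule neuron precursors and from glia, while mature neurons generally have little of it.

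Gene counts per library ranged from 50326298 to 88214069. Kdm6b was lower in all 3 knockdown libraries, at 88.8, 63.3 and 79.8 reads per 1000000 reads of TMM-scaled library size (CPM), than in any control, at 257, 146 and 170 CPM. Its log2 fold change passed with the replicate number as a block (−1.28, SE 0.11, edgeR adjusted p = 0.0282) and not without it (−1.31, SE 0.25, edgeR adjusted p = 0.216). Libraries with the same replicate number deviated from their group means in the same way, so each change is given from the edgeR fit that takes the replicate number as a block, and for the members the fit without the block stands beside it. The plan had the fit without the block as the main one. The blocked fit was put first after these shared deviations were seen. A change was called at a Benjamini-Hochberg adjusted p under 0.05 over all 15731 genes tested. The listed granule neuron markers were present in every library. The 4 highest were Cbln1, Zic1, Snap25 and Zic2, and the summed level of the 15 listed markers was 5560 to 8160 CPM in controls and 6020 to 9210 CPM in knockdowns. Single markers moved both ways. With the block 2 of the 15 were called higher, Barhl1 (log2 fold change 1.63) and Tubb3 (1.02), and 1 lower, Etv1 (−1.48). Over all genes 2.58% were called higher and 5.40% lower. Without the block edgeR called 0 of the 15. Markers of other cells were present too. The 18 pericyte and fibroblast markers summed to 13500, 23800 and 27100 CPM in control replicates 1 to 3 and to 4610, 7380 and 12500 CPM in knockdown replicates 1 to 3.

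Of the 10 genes 3 fell and 1 rose in the knockdown in the fit with the replicate block. The factor genes Tead1, Tead2 and Wwtr1 fell to 0.570, 0.602 and 0.626 times the control level, and the inhibitor gene Amotl2 rose to 1.29 times the control level. The other 6 did not pass: Yap1, Amotl1, Ctgf and Cyr61 had values below 0 on the log2 scale, and Lats2 and Ankrd1 values above 0. These 4 of 10 stand beside 7.98% of all genes called with the block, the 3 lower beside 5.40% called lower and the 1 higher beside 2.58% called higher. The members were chosen with earlier results of these data known, so such counts are description only. Without the block edgeR called 0 of the 10, beside 0.00636% of all genes (1 gene). By unadjusted p under 0.05 that fit had 1 member, Amotl1, beside 10.6% of all genes, and without the block DESeq2 and limma-voom called 0 members (3.61% and 0.00636% of all genes). With the block DESeq2 called 8 members beside 21.9% of all genes, limma-voom 5 beside 8.86%, and all 10 had an unadjusted edgeR p under 0.05 beside 34.1%. With the block and without replicate 1, edgeR called 0 members and 0 genes in all, and without replicate 2 it called 0 members and 53 genes. Without replicate 3 it called Wwtr1, Tead1, Tead2 and Amotl1, and not Amotl2. With library totals in place of TMM factors the block called Tead1 and Amotl2 alone. All 10 members had the same direction in all 3 pairs of libraries, which was so for 60.3% of all genes tested, and 0 of the 10 had groups that did not overlap, beside 16.7% of all genes.

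**Figure D1:**
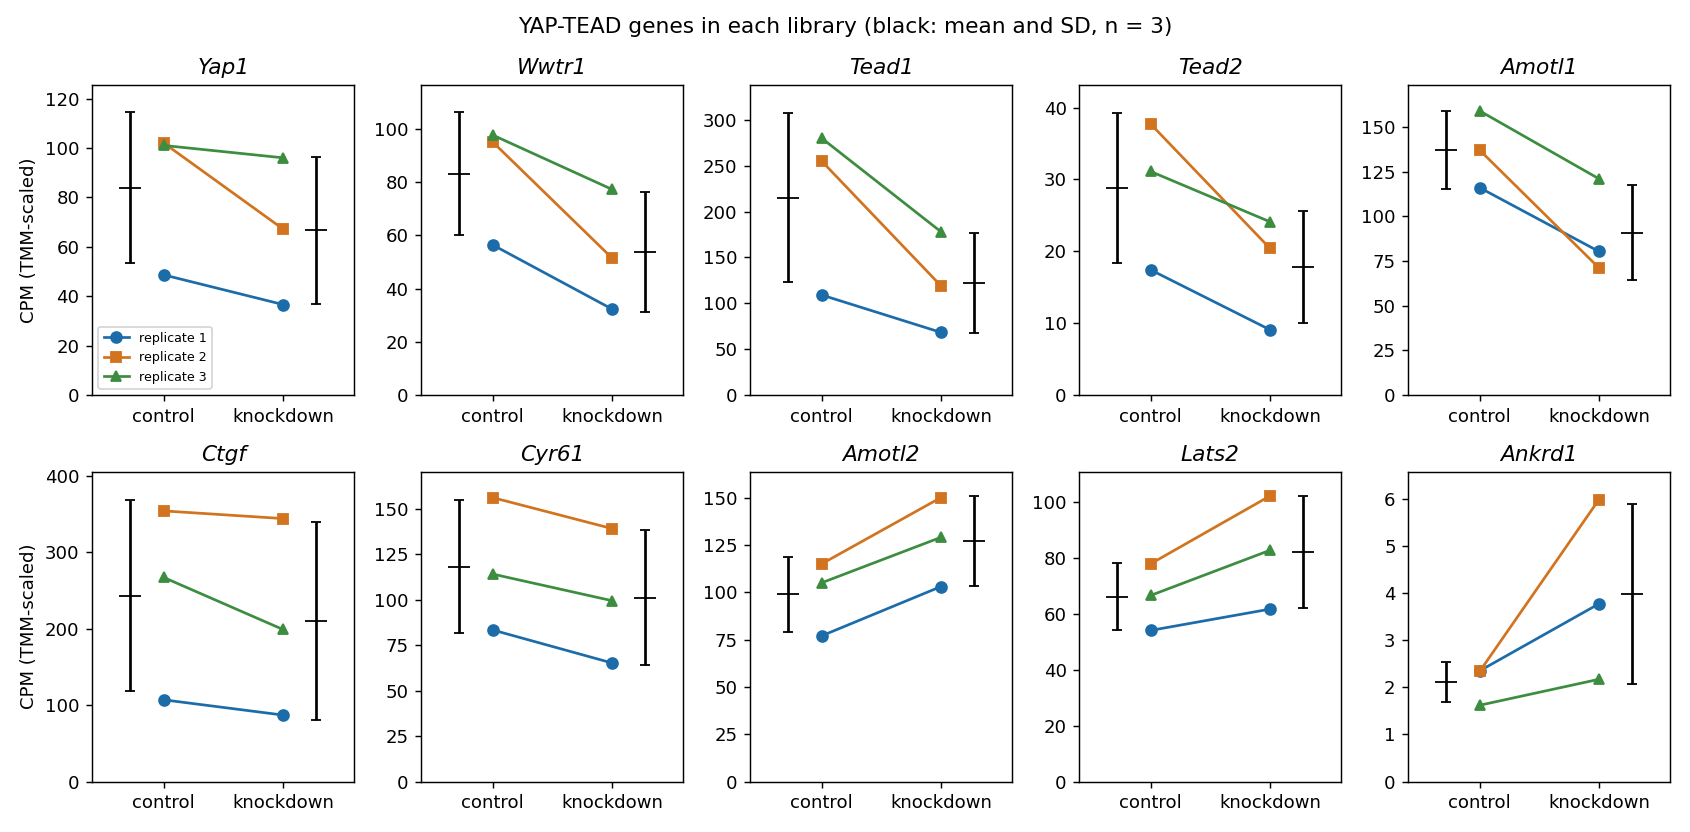
Level of the 10 genes by library, in TMM-scaled CPM on linear axes that start at 0. Lines join a control to the knockdown with its replicate number, and black marks show the group mean with its SD (n = 3). Lines go down in all 3 pairs for Yap1, Wwtr1, Tead1, Tead2, Amotl1, Ctgf and Cyr61 and up in all 3 pairs for Amotl2, Lats2 and Ankrd1, while the ranges of both groups overlap in every panel.

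Tead1 showed the widest fall of the called members. TEAD1 is one of the factors that bring YAP and TAZ to DNA. Its level was 109, 255 and 280 CPM in control replicates 1 to 3 and 68.2, 119 and 178 CPM in knockdown replicates 1 to 3. Each knockdown library was below the control of its number, and knockdown replicates 2 and 3 lay above control replicate 1. The group means were 215 ± 92.0 and 122 ± 54.9 CPM (SD, n = 3). The log2 fold change with the block was −0.81 (SE 0.11, edgeR adjusted p = 0.0334), and without the block −0.82 (SE 0.46, edgeR adjusted p = 0.565).

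Tead2, the second TEAD factor gene of the set, was at 17.4, 37.7 and 31.1 CPM in the control libraries and at 9.07, 20.4 and 24.1 CPM in the knockdown libraries. Replicate 1 was the lowest in both groups, and the fall was wider in pairs 1 and 2 (0.520 and 0.540 of the control) than in pair 3 (0.773). The log2 fold change with the block was −0.73 (SE 0.14, edgeR adjusted p = 0.0486), and without it −0.69 (edgeR adjusted p = 0.596). Exons of Tead2 overlap those of Cd37 on the opposite strand in GENCODE M21, and whether the counting used the strand is not known here. The relatives Tead3 (log2 fold change with the block −0.52, SE 0.14, edgeR adjusted p = 0.0760) and Tead4 (−0.45, SE 0.28, edgeR adjusted p = 0.310) did not pass.

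Of the paralogous coactivator genes Wwtr1 passed and Yap1 did not, and the difference between them is given as a count ratio further on. Wwtr1 was at 56.4, 95.1 and 97.7 CPM in the control libraries and at 32.3, 51.5 and 77.3 CPM in the knockdown libraries. It was lower in each pair, and only knockdown replicate 3 lay above the lowest control. Its log2 fold change was −0.68 with the block (SE 0.13, edgeR adjusted p = 0.0476) and −0.63 without it (edgeR adjusted p = 0.568). Yap1 was at 48.6, 102 and 101 CPM in the control libraries and at 36.6, 67.2 and 96.0 CPM in the knockdown libraries, so that the pair of replicate 3 nearly coincided. Its log2 fold change with the block was −0.36 (SE 0.12) and did not pass (edgeR adjusted p = 0.113), and without the block it was −0.33 (edgeR adjusted p = 0.804). The Yap1 exons overlap a noncoding gene, Gm20416, on the opposite strand.

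**Figure D2:**
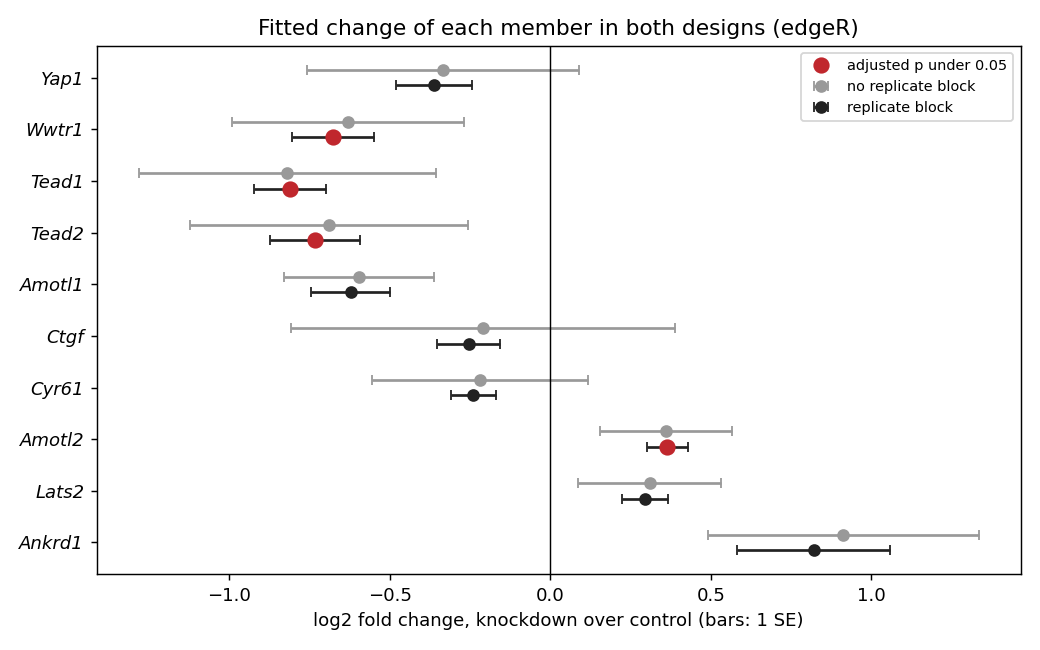
Log2 fold change of each gene, knockdown over control, with 1 standard error, from the edgeR fit without the replicate block (grey) and with it (black, red where the adjusted p was under 0.05). Both fits place each gene at nearly the same value, the block narrows the error, and Wwtr1, Tead1, Tead2 and Amotl2 are the red points.

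Of the angiomotin-like genes Amotl2 passed and Amotl1 narrowly did not. Amotl2, an inhibitor that is also a YAP target, was at 77.0, 115 and 105 CPM in the control libraries and at 103, 150 and 129 CPM in the knockdown libraries. The rise was of similar size in all 3 pairs, at 1.33, 1.30 and 1.23 times the control. The log2 fold change with the block was 0.36 (SE 0.06, edgeR adjusted p = 0.0447), and without it 0.36 (SE 0.21, edgeR adjusted p = 0.566). Amotl1, the paralogue, was at 116, 137 and 159 CPM in the control libraries and at 80.3, 71.1 and 121 CPM in the knockdown libraries. Only knockdown replicate 3 reached the range of the controls. Amotl1 lay just above the threshold, with a log2 fold change of −0.62 with the block (SE 0.12, edgeR adjusted p = 0.0513) and −0.60 without it (edgeR adjusted p = 0.464), and it passed in 7 of the 11 settings that included the block. The founding member of the family, Amot, had a log2 fold change of −0.11 with the block (SE 0.07, edgeR adjusted p = 0.317).

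Lats2, the Hippo kinase that is both inhibitor and target, was at 54.0, 77.8 and 66.5 CPM in the control libraries and at 61.6, 102 and 82.6 CPM in the knockdown libraries. It was higher in each pair, by 1.14, 1.31 and 1.24 times. The log2 fold change with the block was 0.30 (SE 0.07) and did not pass (edgeR adjusted p = 0.0679), and without the block it was 0.31 (edgeR adjusted p = 0.642). Its exons overlap another gene model on the same strand, Gm49361. The sister kinase Lats1 had a log2 fold change of −0.29 (SE 0.08, edgeR adjusted p = 0.0774) with the block and did not pass either.

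The secreted targets Ctgf and Cyr61 differed more between replicate numbers than between groups. Ctgf was at 107, 354 and 267 CPM in the control libraries and at 87.1, 344 and 199 CPM in the knockdown libraries, so that replicate 1 was lowest and replicate 2 highest in both groups. Its log2 fold change with the block was −0.25 (SE 0.10, edgeR adjusted p = 0.145), and without it −0.21 (edgeR adjusted p = 0.918). Cyr61 was at 83.3, 156 and 114 CPM in the control libraries and at 65.2, 139 and 99.4 CPM in the knockdown libraries, in the same order of replicates. Its log2 fold change with the block was −0.24 (SE 0.07, edgeR adjusted p = 0.0939), and without it −0.22 (edgeR adjusted p = 0.840). Neither passed in any of the settings tried. Exons of Ctgf overlap a noncoding gene on the opposite strand, Gm15270. Ankrd1 was the rarest member, with 171, 117 and 85 reads in controls and 337, 322 and 148 reads in knockdowns. That corresponds to 2.35, 2.34 and 1.62 CPM and to 3.77, 5.98 and 2.17 CPM, with knockdown replicate 2 standing highest. Its log2 fold change with the block was 0.82 (SE 0.24) and did not pass (edgeR adjusted p = 0.0898), and without the block it was 0.91 (edgeR adjusted p = 0.507).

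The spread that libraries of one number share is set here beside the difference between the groups. For 9 of the 10 the range of the mean log2 CPM over the 3 replicate numbers was larger than the difference between the group means. Amotl1 was the exception, with a range of 0.53 over replicate numbers and a difference of 0.62 between groups. The range was widest for Ctgf, at 1.85, against a group difference of 0.25. For Yap1 the range was 1.22 and the group difference 0.36. The share of all genes with a larger range was not computed, so this is not shown to be particular to the members. A range over 3 means of fewer libraries each also tends to be larger than a difference between group means.

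Ratios of read counts within a library do not depend on how libraries are scaled, and they were taken for 4 pairs of related members: both coactivators, both TEAD factors, both secreted targets and both angiomotin-like genes. The Amotl1/Amotl2 count ratio was 1.5, 1.19 and 1.52 in controls and 0.784, 0.474 and 0.940 in knockdowns. All knockdown values lay below all control values. The Yap1/Wwtr1 count ratio was 0.861, 1.08 and 1.03 in controls and 1.13, 1.31 and 1.24 in knockdowns, so that all knockdown values lay above all control values. For each of these ratios the exact permutation test, two-sided over 3 and 3 libraries, gives p = 0.1, the smallest it can give. That test takes the libraries as unpaired, and the ratios were chosen after the values were seen, so it adds no support. The Tead1/Tead2 ratio overlapped, at 6.27 to 8.98 in controls and 5.83 to 7.52 in knockdowns. The Ctgf/Cyr61 ratio also overlapped, with means of 1.97 ± 0.591 and 1.94 ± 0.572 (SD, n = 3).

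**Figure D3:**
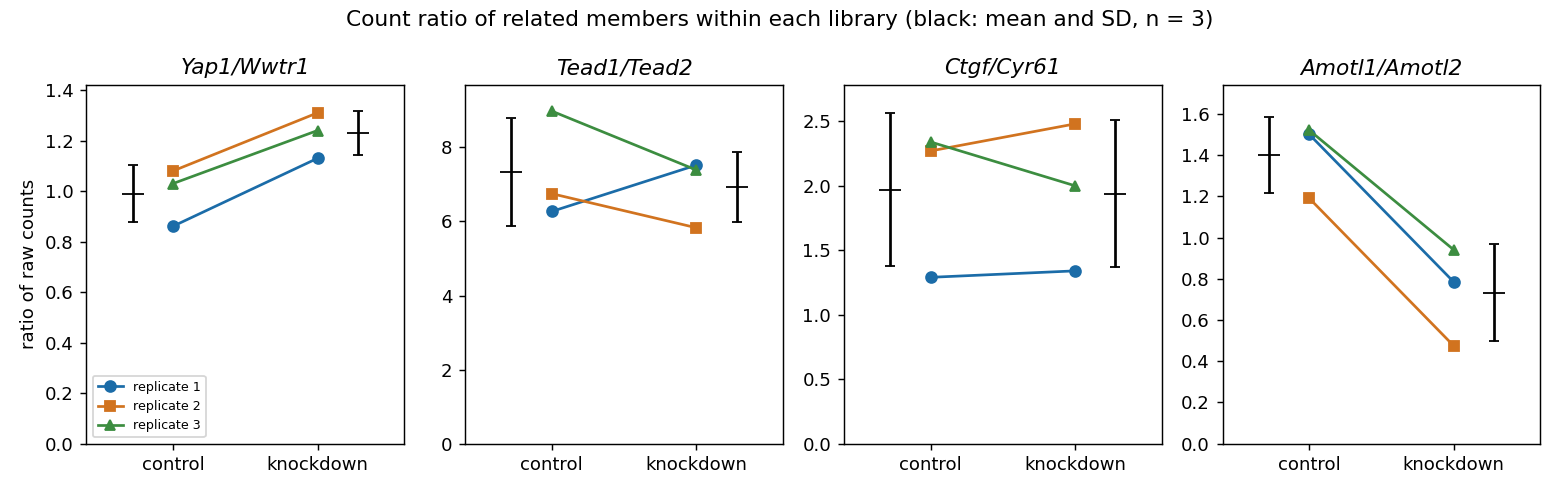
Ratio of raw read counts within each library (linear axes from 0) for 4 pairs of members, with lines between libraries that share a replicate number and black marks for the group mean with its SD (n = 3). The groups are separate for Yap1/Wwtr1 and Amotl1/Amotl2 and overlap for Tead1/Tead2 and Ctgf/Cyr61.

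Per kilobase of annotated exon the secreted targets were the most abundant members. The control means of CPM per kilobase were 84.9 for Ctgf and 58.4 for Cyr61, and their controls overlapped, at 37.4 to 124 and 41.3 to 77.3 CPM per kilobase. Wwtr1 (17.4), Tead1 (15.8), Amotl2 (15.7) and Amotl1 (13.6) followed with overlapping control ranges. Lats2 (9.48), Yap1 (9.06) and Tead2 (6.02) came next and overlapped among themselves, and the lowest Tead1 control, 8.03, lay within the ranges of Lats2 and Yap1. Ankrd1 was far below the others at 0.731, and its highest control of 0.814 lay under the lowest of Tead2, 3.63. In the knockdown the mean of Amotl2, 20.2 CPM per kilobase, stood above those of Wwtr1 (11.2), Amotl1 (9.02) and Tead1 (8.99). Lengths are those of all exons of a gene joined in GENCODE M21, so a gene with a long unused exon reads too low on this scale.

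Start-site sequence was taken from RefSeq (build GRCm38.p6) and matched by name or older name, which gave promoters for 8 of the 10 members and none for Tead1 and Ctgf. Each window runs from 250 bases before to 50 bases after a start site. The core of the TEAD recognition element, GGAATG, was searched on both strands and was found in 7 of the 10 promoters of these 8 members, and in 14.7% of all 32851 promoters of that length. The 7 promoters belong to 6 members. Members that fell (Wwtr1), rose (Amotl2) or did not pass (Yap1, Cyr61, Lats2, Ankrd1) all held it, and Tead2 and Amotl1 did not. The last bases of the Tead2 window were in no GENCODE M21 transcript of Tead2, unlike those of the other members, so its placement is less sure. The matches are shown because this is the sequence through which TEAD factors are known to act. Each is written 5′ to 3′ on the strand of its gene, with the match in capitals, which reads CATTCC where the element lies on the other strand:
Amotl2: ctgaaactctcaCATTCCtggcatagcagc
Cyr61: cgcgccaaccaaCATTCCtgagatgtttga
Ankrd1, nearer match: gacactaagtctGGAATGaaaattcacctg
Ankrd1, farther match: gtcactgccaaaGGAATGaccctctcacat
Lats2: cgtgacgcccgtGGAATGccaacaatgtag
Wwtr1: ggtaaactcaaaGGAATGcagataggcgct
Yap1: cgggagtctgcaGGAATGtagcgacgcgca

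These stretches lie at chr9:102717727-102717756 on the plus strand for Amotl2, and on the minus strand at chr3:145650071-145650100 for Cyr61, chr19:36119950-36119979 and chr19:36120037-36120066 for Ankrd1, chr14:57746102-57746131 for Lats2, chr3:57576029-57576058 for Wwtr1 and chr9:8004720-8004749 for Yap1. Counted from the start site, the element began at −65 in Amotl2, −103 in Cyr61, −123 and −210 in Ankrd1 and −141 in Yap1. In Lats2 it lay just inside the transcript, at 5 to 10 from one of its annotated starts, and the promoter of the other start did not hold it. Wwtr1 also has a pair of annotated starts, and the same element lies at −136 from one and −170 from the other. The AP-1 element TGANTCA, found in 7.81% of promoters, and the CArG box bound by SRF, found in 1.63%, were in 0 of the 10. A match of these letters is a description of the sequence and does not show binding.

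The labels give 1 hairpin strand, and it contains the word ACAAGTG. In the longest 3′ UTR annotated for each gene (GENCODE M21) that word occurred in 1 of the 10 members, Lats2, and in 10.6% of 21805 genes. The members called lower, Wwtr1, Tead1 and Tead2, did not have it there. The word is an inner stretch of that strand and was searched in that orientation alone. Whether it is the part that pairs with other transcripts is not known here. Having or lacking the word therefore does not bear on pairing of the hairpin with the members, which was not tested.

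Other genes of the pathway were counted from lists drawn up by function. These lists and the marker lists were chosen with earlier results of these data known. Their counts beside the shares of all genes are therefore description and add no support. Over all genes tested, edgeR with the block called 5.40% lower and 2.58% higher, and 34.1% had an unadjusted p under 0.05. With the block DESeq2 called 21.9% and limma-voom 8.86%. Without it 10.6% had an unadjusted edgeR p under 0.05, and edgeR, DESeq2 and limma-voom called 0.00636%, 3.61% and 0.00636%. These shares stand beside every list below. Of 27 Hippo regulators 5 fell and 0 rose with the block, and the list median log2 fold change was 0.00, beside 0.02 over all genes tested. The 5 were Mob1a, an adaptor of the LATS kinases (39.0 ± 11.1 and 25.3 ± 7.17 CPM, SD, n = 3; −0.62, SE 0.09, edgeR adjusted p = 0.0326), Fat4, a giant protocadherin (−0.51, SE 0.08, edgeR adjusted p = 0.0381), its ligand Dchs1 (−0.66, SE 0.12), Ptpn14, a phosphatase that binds YAP (−0.47, SE 0.08), and the kinase scaffold Sav1. Sav1 was at 52.4, 69.6 and 58.4 CPM in the control libraries and at 39.9, 44.3 and 45.5 CPM in the knockdown libraries, with no overlap between the groups (log2 fold change −0.47, SE 0.09, edgeR adjusted p = 0.0470). Groups did not overlap for 16.7% of all genes tested. The upstream regulator Nf2 (0.32, edgeR adjusted p = 0.0622), Stk3 (0.00) and Stk4 (0.23, edgeR adjusted p = 0.0857), the kinases at the head of the cascade, did not pass. Without the block edgeR called 0 of the 27, with 3 at an unadjusted p under 0.05 (10.6% of all genes), and DESeq2 and limma-voom without the block called 0.

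Of 4 tested TEAD factors and cofactors outside the 10 none passed with the block in edgeR (3 at an unadjusted p under 0.05, 2 called by DESeq2 and 0 by limma-voom with the block). The smallest p was that of Vgll4, a cofactor that competes with YAP for TEAD, with a log2 fold change of 0.41 (SE 0.09, edgeR adjusted p = 0.0615). Vgll2 was too low to test, with at most 2 reads in a library. Of 21 other genes reported as YAP targets 6 fell and 0 rose with the block (5.40% and 2.58% of all genes), and the list median was −0.45. Nt5e, an ecto-nucleotidase and mesenchymal surface marker, fell from 21.7 ± 11.5 to 5.53 ± 5.01 CPM (SD, n = 3; −2.22, SE 0.24, edgeR adjusted p = 0.0282). The receptor tyrosine kinase Axl (−0.85, SE 0.10), the membrane repair protein gene Myof (−1.25, SE 0.15), Dock5, Igfbp3 and Ptpn14 fell too. Thbs1, which encodes a secreted matrix protein, had a log2 fold change of 0.59 (edgeR adjusted p = 0.143) and did not pass. Of 12 genes of the SRF and actin program, which shares many targets with YAP, 8 fell and 0 rose beside those same shares, with a median of −0.60. The smallest p values there were those of the calponin gene Cnn1 (−1.60, SE 0.13), the tropomyosin gene Tpm2 (−1.15, SE 0.12) and the smooth muscle actin gene Actg2 (−1.29, SE 0.17). Srf itself had a log2 fold change of 0.03 (edgeR adjusted p = 0.787). Without the block edgeR called 0 genes of either list (2 YAP targets and 1 SRF target at an unadjusted p under 0.05, beside 10.6% of all genes), and DESeq2 and limma-voom called 0.

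**Figure D4:**
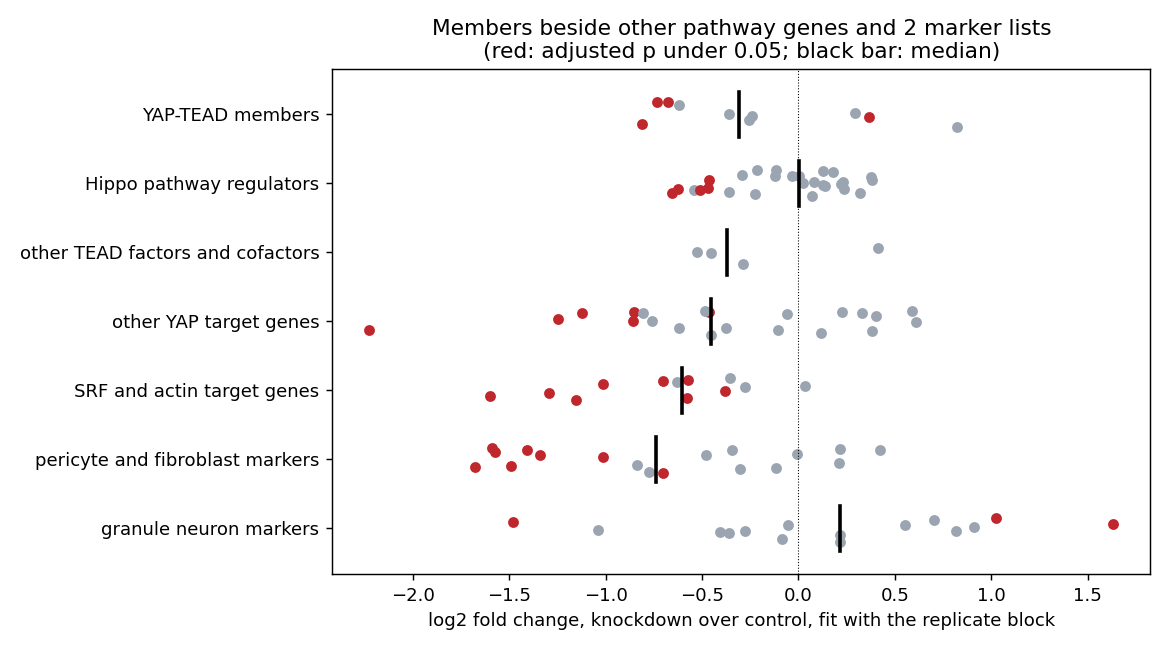
Fitted log2 difference of knockdown from control, with the replicate number as a block, for each tested gene of the 10 members, 4 lists of other pathway genes and 2 marker lists, with red points past an adjusted p of 0.05, black bars at the list medians and points spread vertically for visibility. The medians lie at −0.31 for the members, −0.45 for the other YAP targets, −0.60 for the SRF and actin targets, −0.74 for pericyte and fibroblast markers and 0.22 for granule neuron markers.

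Of the 18 pericyte and fibroblast markers 8 fell and 0 rose with the block (5.40% and 2.58% of all genes), with a median of −0.74. Most of their sum came from the 4 highest, the matrix genes Col1a1 (6570 ± 2630 and 2480 ± 1510 CPM, SD, n = 3), Col1a2, Col3a1 and Fn1, and 0 of the 18 were at 0 in any library. The whole sum did not overlap between the groups. Without those 4 genes it did, at 1010 to 1870 CPM in controls and 654 to 1190 CPM in knockdowns. Besides those matrix genes, the markers called lower were Pdgfrb (log2 fold change −1.34, SE 0.08), Cspg4 (−1.59, SE 0.29), Acta2 (−1.01, SE 0.15) and Tagln (−0.70, SE 0.10). Pdgfrb did not overlap between the groups, as for 16.7% of all genes tested. Of the other markers, the pericyte genes Rgs5 (log2 fold change 0.42, SE 0.29), Kcnj8 (0.22, SE 0.22) and Vtn (0.21, SE 0.11) and the contractile gene Mylk (−0.01, SE 0.13) did not pass. In each group the whole sum was lowest in replicate 1 and highest in replicate 3. The astrocyte sum had that order too, and of the 10 members Tead1 and Wwtr1 had it in both groups and the other 8 did not. Yap1 had it in the knockdown and missed it in controls narrowly, with replicates 2 and 3 at 102 and 101 CPM. The pericyte and fibroblast sum was lower in each pair. Yap1, Wwtr1, Tead1, Tead2, Amotl1, Ctgf and Cyr61 were also lower in each pair, and Amotl2, Lats2 and Ankrd1 were higher. A link between these markers and the members was not tested.

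The sum of 16 astrocyte and Bergmann glia markers, led by Gfap, Aqp4, Slc4a4 and Slc1a3, was 1740 to 4280 CPM in controls and 1210 to 4460 CPM in knockdowns, with 1 of 16 lower. The sum of 14 endothelial markers was 101 to 174 and 82.0 to 194 CPM (0 of 14 called by edgeR, 1 at an unadjusted p under 0.05, 1 by DESeq2 and 0 by limma-voom, all with the block). Much of that sum was Cdh5, at 41, 73.6 and 118 CPM in control replicates 1 to 3 and 26.5, 45.4 and 122 CPM in knockdown replicates 1 to 3. Without the 4 highest genes the endothelial sum was 12 to 30 CPM in controls and 7.09 to 30.3 CPM in knockdowns. The sum of 14 microglia markers was 74.5 to 234 and 33.4 to 93.7 CPM. Their median log2 fold change was −1.99, with 13 of 14 below 0, and edgeR called 1 and DESeq2 4 of them with the block. The microglial complement gene C1qa stood at 0.0282, 0.464 and 0.581 times the control in pairs 1 to 3 and did not pass (edgeR adjusted p = 0.172). It had 1699, 6 and 423 reads in control replicates 1 to 3 and 59, 3 and 320 in knockdown replicates 1 to 3. The ratio of pair 2 thus rests on very few reads. Without the 4 highest genes the microglia sum in replicate 2 was 1.16 CPM in the control and 0.798 CPM in the knockdown. The sum of 12 oligodendrocyte lineage markers was 259 to 1330 and 177 to 993 CPM, with 3 called lower with the block (5.40% of all genes). Without the block edgeR called 0 genes of these 5 lists, with 6 pericyte and fibroblast markers and 1 of each other list at an unadjusted p under 0.05 (10.6% of all genes). Without the block DESeq2 called 2 pericyte and fibroblast markers and limma-voom called 0. The lists share genes: Acta2 and Tagln count among both the SRF and actin targets and the pericyte and fibroblast markers, Cspg4 and Pdgfra among both the latter and the oligodendrocyte lineage markers, and Ptpn14 among both Hippo regulators and YAP targets. In bulk RNA fewer cells of a type and less RNA per cell cannot be told apart, and the part of these cells in the values of the 10 genes was not tested.

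The genes whose pattern over the 6 libraries lay nearest to those of Yap1 and Ctgf were found by the root mean square difference of log2 CPM, centred on each gene's mean, over 11781 genes whose mean was 5 CPM or more. Nearest to Yap1 were Lrrk1 (0.0502 on the log2 scale), Atad2 (0.0532), Ctnna1 (0.0611), Caskin2 (0.0627) and Zfp36l2 (0.0644), against a root mean square deviation of Yap1 itself of 0.569. Among the members Wwtr1 was nearest to Yap1, at 0.195, and Ankrd1 farthest, at 1.02. Nearest to Ctgf were Col7a1 (0.127), Epha2 (0.131), Kalrn (0.134), Slc32a1 (0.166) and the TEAD cofactor gene Vgll3 (0.171), against 0.787 for Ctgf itself. Cyr61 was the nearest member to Ctgf, at 0.384. These distances describe 6 libraries that share their replicate numbers.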

How the data were processed

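The deposited values are whole-number read counts per gene from stranded mRNA libraries with 50 bp single-end reads, per the labels. The submitters' processing notes name Trimmomatic, TopHat2, HTSeq, edgeR, DESeq2 and build mm9, with no versions, annotation or strand setting. Tallies that name no gene were left out: 12.1% to 15.0% of all counts lay outside genes, 0.406% to 0.509% were ambiguous and 16.0% to 19.3% not unique. Nothing in the labels ties replicates to separate cultures, and p-values cover only the spread between these libraries. Libraries of one group differed beyond counting noise (chi-square per degree of freedom 182 to 397).

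Counts were fitted with edgeR 4.0.16 in R 4.3.3 (filterByExpr with minimum count 10 and minimum total 15, TMM, quasi-likelihood F test, Benjamini-Hochberg over 15731 genes), as planned without a replicate term. Standard errors are the size of the log2 fold change over the root of F. Log2 CPM used a prior count of 2. Deviations from group means correlated at 0.772, 0.709 and 0.701 for libraries of the same number and at −0.532 to −0.135 for others, so a second fit, blocked on replicate number, is given too. This pairing comes from the data, not the labels. The fit was tested on simulated data.

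The members and lists were chosen with earlier results of these data known. The rule for named genes took the 10 members, Kdm6b, up to 3 called genes of smallest p per pathway list and direction, or else the gene of smallest p, the 4 highest markers per marker list and the 5 genes nearest to Yap1 and to Ctgf. The count ratios, the 3′ UTR word, and Sav1, Dchs1, Dock5, Igfbp3, Nf2, Stk3, Stk4, Lats1, Amot, Thbs1, Srf, Tead3, Tead4, Vgll2, Pdgfrb, Cspg4, Acta2, Tagln, Rgs5, Kcnj8, Vtn, Mylk, Barhl1, Tubb3 and Etv1 were chosen beyond it, after the values were seen. Other settings were RLE or upper-quartile factors, library totals, a mean of at least 5 CPM, no filter, DESeq2 1.42.0, limma-voom (limma 3.58.1) and leaving out libraries.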

Additional observations from a re-analysis of the deposited data

How the results depend on the processing

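Without the block no setting called any of the 10 members. The replicate block called 4, and with the block 5 were called with RLE factors, upper-quartile factors, no filter on low counts, a mean of at least 5 CPM (9 members tested) or limma-voom, 2 with library totals alone (Tead1 and Amotl2) and 8 with DESeq2. Leaving out 1 library without the block gave 0 members and 0 genes, and leaving out 1 pair with the block gave 0 to 4 members and 0 to 1272 genes (53 without replicate 2). Over all genes, 1 was called without the block, 0 with library totals alone and 568 with DESeq2. The replicate block called 1256 (406 higher, 850 lower), with RLE factors 1342, upper-quartile factors 1350, no filter 1598, a mean of at least 5 CPM 1439, DESeq2 3440 and limma-voom 1394. With library totals alone the block called 1276, of which 723 were higher and 553 lower. The block raised the calls among Hippo regulators from 0 to 5, other YAP targets from 0 to 6 and SRF and actin targets from 0 to 8. Without the block the log2 fold change of Ctgf turned to 0.17 without control replicate 2 and to 0.16 without knockdown replicate 1, and that of Cyr61 to 0.037 and 0.017. Over the fits that left out 1 library they ranged from −0.78 to 0.17 for Ctgf and from −0.53 to 0.037 for Cyr61, and the cause was not tested. The other 8 members kept their direction in all 24 alternatives (22 for Ankrd1, which a mean of at least 5 CPM left out). Their log2 fold changes spanned −0.694 to −0.0403 for Yap1, −0.989 to −0.369 for Wwtr1, −1.20 to −0.533 for Tead1, −0.967 to −0.373 for Tead2, −0.857 to −0.463 for Amotl1, 0.209 to 0.494 for Amotl2, 0.110 to 0.478 for Lats2 and 0.481 to 1.21 for Ankrd1.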
